A study of Homo sapiens with 4 samples.

Results

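Polyamines are small cationic metabolites that bind nucleic acids, and 10 genes of their metabolism were followed in LNCaP, an androgen-sensitive human prostate cancer cell line. The genes were taken by symbol: ODC1, AMD1, SRM and SMS make polyamines, OAZ1, OAZ2 and AZIN1 control ornithine decarboxylase, and SAT1, SMOX and PAOX break polyamines down. All 10 were present among the 17141 genes of the table, and all 10 passed the filter on low counts that left 15162 genes for testing. LNCaP-RRM2 cells stably overexpressed RRM2, the small subunit of ribonucleotide reductase, from a lentiviral vector, and LNCaP-EV cells carried the empty vector. The study states puromycin selection for the RRM2 line and does not describe how the empty-vector line was selected. Both lines were grown in standard medium and measured as 2 RNA-seq libraries each. Whether a line was 1 clone, and whether the 2 libraries of a group were separate cultures, is not stated. The p-values therefore rest on the spread between these samples alone, and that spread may be technical.

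The pathway starts when ornithine decarboxylase turns ornithine into putrescine. AMD1 supplies the aminopropyl groups that SRM and SMS then add to form spermidine and spermine. Antizymes bind ornithine decarboxylase and send it to the proteasome, and antizyme is itself made only when the ribosome shifts frame, which polyamines promote. The prostate is known for secreting large amounts of spermine, and ODC1 and AMD1 are known androgen-responsive genes there.

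The frameshift sites of the antizyme genes are shown because they are the point at which polyamines feed back on the pathway. In the lines below, the 6 capitals mark TCCTGA, in which the frame is shifted and whose TGA is the stop codon of the first frame, and 28 of the 30 bases are alike. The sites were read from transcripts of GENCODE release 29 on GRCh38, at chr19:2271431-2271460 on the plus strand for OAZ1 and at chr15:64691498-64691527 on the minus strand for OAZ2.
OAZ1: cggtggtgcTCCTGAtgcccctcacccacc
OAZ2: ctgtggtgcTCCTGAtgcccctcacccact
The counts are of whole transcripts and do not show how often the frame was shifted.

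Library totals lay between 26601061 and 32601519 counts. RRM2 had 9291 and 8979 CPM in LNCaP-RRM2, against 318.3 and 342.6 CPM in LNCaP-EV, where CPM is counts scaled to a common library total. This was 27.6-fold higher (log2 4.79, SE 0.10; adjusted p = 0.000282 by edgeR's quasi-likelihood test with Benjamini-Hochberg adjustment), and introduced and resident RRM2 were not separated. The share of counts from ribosomal RNA genes was 6.58% and 5.94% in LNCaP-RRM2, against 4.74% and 4.93% in LNCaP-EV. All 8 LNCaP markers on a fixed list passed the filter and summed to between 9618 and 9919 CPM in LNCaP-RRM2, against between 6318 and 6568 CPM in LNCaP-EV. Of the fibroblast markers, 5 of 6 were in the table and summed to between 27.1 and 36.0 CPM in LNCaP-RRM2, against between 8.53 and 12.5 CPM in LNCaP-EV (DCN was not among them). COL1A1 made up most of these sums, with 32.8 and 24.2 CPM in LNCaP-RRM2 against 11.1 and 6.74 CPM in LNCaP-EV. COL3A1 had 1.47 and 1.39 CPM in LNCaP-RRM2 against 0.696 and 0.823 CPM in LNCaP-EV. PDGFRB had 1.29 and 0.990 CPM in LNCaP-RRM2 against 0.348 and 0.374 CPM in LNCaP-EV. For COL1A1, COL3A1 and PDGFRB, LNCaP-RRM2 lay above LNCaP-EV without overlap, as for 34.5% of all genes tested. COL1A2 and LUM stayed below 1 CPM with overlapping groups. Basal markers (1 of 3 in the table, without KRT5 and TP63) summed to between 2.64 and 3.13 CPM in LNCaP-RRM2 and between 0.524 and 1.11 CPM in LNCaP-EV. Endothelial markers (1 of 4) summed to between 9.66 and 11.3 CPM in LNCaP-RRM2 and between 6.62 and 8.64 CPM in LNCaP-EV, and blood cell markers (1 of 5) stayed below 1 CPM in every library. The part of these markers in the results was not tested. In bulk RNA, fewer cells of a type and less RNA per cell cannot be told apart.

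Among the 10 polyamine genes, ODC1 and AZIN1 were lower in LNCaP-RRM2, none was higher, and 8 were not called. A call needed both a fold change above 1.5 and an adjusted p below 0.05. Over all genes tested, 12.5% were called higher and 7.96% lower, 20.5% in either direction, so 2 of 10 is close to the share of all genes. The median log2 fold change was -0.12 over the polyamine genes and -0.026 over all genes tested. The first of these moved to 0.085 when LNCaP-EV replicate 1 was left out and to -0.27 when replicate 2 was, and it was between -0.074 and -0.039 with other scalings, -0.06 with the stricter filter and -0.35 with the trend with GC content removed. Without the fold limit, ODC1, AZIN1 and SMS were lower and SAT1 was higher, where 24.4% of all genes were lower and 17.8% higher. The libraries of the 2 groups did not overlap for 6 members, with LNCaP-RRM2 below LNCaP-EV for ODC1, AZIN1, AMD1 and SMS (40.9% of all genes) and above it for OAZ2 and SAT1 (34.5% of all genes). By role, the median log2 fold change was -0.34 over the 4 synthesis genes and -0.11 over the 3 genes that control ornithine decarboxylase. The median over the 3 catabolic genes was 0.19, which is the value of SMOX (SE 0.22), a gene that did not pass the test. With the trend with GC content removed, SMOX turned to -0.24 and PAOX was at -0.62, while SAT1 was at 0.30. Whether the roles differ was not tested.

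**Figure D1:**
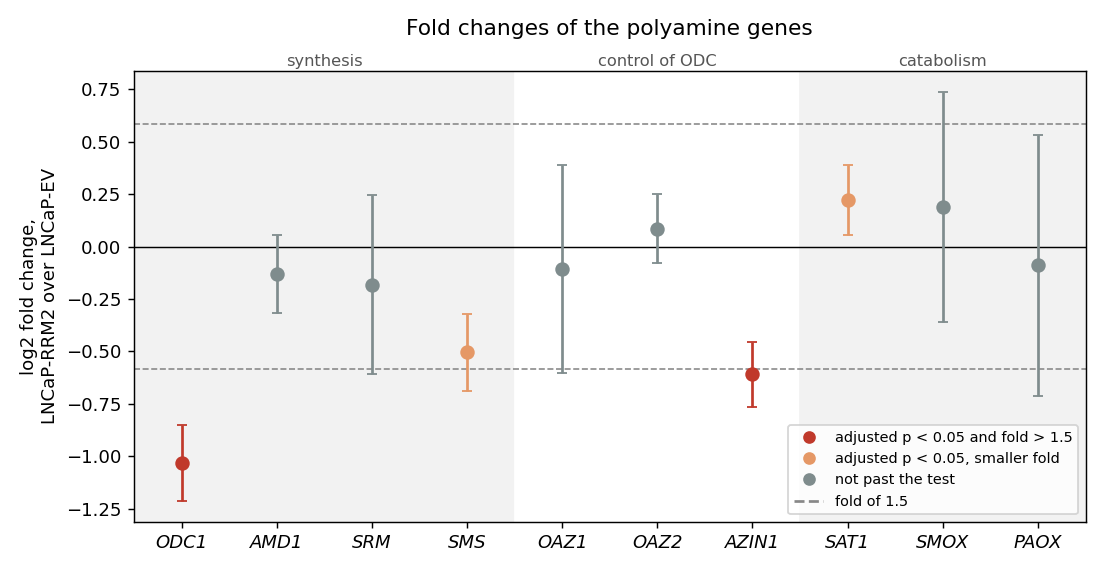
Log2 fold changes of the 10 polyamine genes, LNCaP-RRM2 over LNCaP-EV, with 95% intervals from the model over all genes and dashed lines at a fold of 1.5. ODC1 (-1.03) and AZIN1 (-0.61) lie past the lower line, and the intervals of AMD1, SRM, OAZ1, OAZ2, SMOX and PAOX include 0.

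ODC1 encodes ornithine decarboxylase, the rate-limiting enzyme of polyamine synthesis, and showed the lowest log2 fold change of the 10. It had 393.0 and 411.9 CPM in LNCaP-RRM2, against 790.0 and 855.7 CPM in LNCaP-EV. Both LNCaP-RRM2 libraries lay at about the same level, far below both LNCaP-EV libraries. The mean was 402.5 ± 13.4 CPM in LNCaP-RRM2 and 822.8 ± 46.5 CPM in LNCaP-EV (SD, n = 2 each), so ODC1 fell 2.04-fold (log2 -1.03, SE 0.07, 95% interval -1.21 to -0.85; adjusted p = 0.00232 by edgeR's quasi-likelihood test with Benjamini-Hochberg adjustment). The call held in every alternative that was run, with log2 fold changes between -1.08 and -0.88. ODC1 lies on chromosome 2 (GRCh38, 10440371 to 10448555, minus strand), 308951 bases from the resident RRM2 gene. The 2 genes of the table between them, C2orf48 and HPCAL1, were singled out for their position and were not called (log2 -0.44 and 0.28). Their 95% intervals, -1.54 to 0.66 and -0.35 to 0.92, both reach past the fold limit, and C2orf48 had only 9 to 17 counts a library.

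AMD1 encodes S-adenosylmethionine decarboxylase, the other decarboxylase of the pathway, and did not pass the test. Its level was 1253 and 1298 CPM in LNCaP-RRM2, against 1342 and 1452 CPM in LNCaP-EV. The groups did not overlap, but the LNCaP-EV libraries were further from each other than the nearest libraries of the 2 groups. The log2 fold change was -0.13 (SE 0.07, 95% interval -0.32 to 0.055; adjusted p = 0.203 by edgeR's quasi-likelihood test with Benjamini-Hochberg adjustment), and it was 0.015 without LNCaP-EV replicate 2. AMD1 lies on chromosome 6 (110814621 to 110895713, plus strand) and overlaps CDK19 on the other strand, which had 222.7 and 241.4 CPM in LNCaP-RRM2 and 254.5 and 278.0 CPM in LNCaP-EV. The use of strand in counting is not stated, so reads of the overlap cannot be assigned.

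SMS encodes spermine synthase, which makes the last polyamine of the pathway. It had 101.9 and 103.6 CPM in LNCaP-RRM2, against 139.3 and 152.3 CPM in LNCaP-EV. Both LNCaP-RRM2 libraries were lower than both LNCaP-EV libraries, by 1.42-fold on average. This passed the test but not the fold limit (log2 -0.50, SE 0.07; adjusted p = 0.00619 by edgeR's quasi-likelihood test with Benjamini-Hochberg adjustment). Without LNCaP-RRM2 replicate 1 or replicate 2 the log2 fold change was -0.49 or -0.52 and no longer passed the test. SMS lies on chromosome X (21940573 to 21994837, plus strand).

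SRM encodes spermidine synthase. It had 104.9 and 95.5 CPM in LNCaP-RRM2, against 133.3 and 93.8 CPM in LNCaP-EV. LNCaP-EV replicate 1 alone was high, the other 3 libraries were alike, and the groups overlapped. The log2 fold change was -0.18 (SE 0.17, 95% interval -0.61 to 0.24; adjusted p = 0.423 by edgeR's quasi-likelihood test with Benjamini-Hochberg adjustment) and turned to 0.10 without LNCaP-EV replicate 1. With the trend with GC content removed, SRM was called lower (log2 -0.75). In the main fit the median log2 fold change was 0.51 over the decile of genes with the highest GC content, which holds SRM. SRM lies on chromosome 1 (11054592 to 11060035, minus strand).

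**Figure D2:**
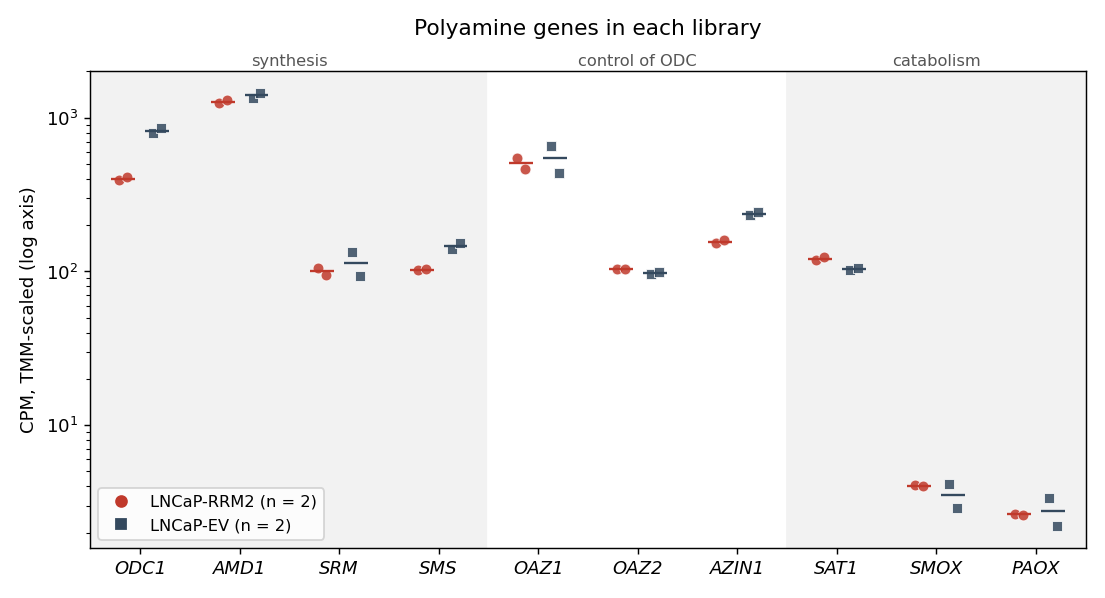
CPM of each polyamine gene in the 4 libraries on a log axis, LNCaP-RRM2 to the left of LNCaP-EV, with a point for each library and a bar at the mean. ODC1 stands at 393.0 and 411.9 CPM in LNCaP-RRM2 against 790.0 and 855.7 CPM in LNCaP-EV, while OAZ1, SRM, SMOX and PAOX show a wide gap between the LNCaP-EV libraries.

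The promoters of the 4 synthesis genes are shown to set ODC1, which fell, beside SMS, AMD1 and SRM, which were not called in the main fit. Each runs from 250 bases before to 50 bases after a start listed by RefSeq on GRCh38.p14. ODC1 has 2 listed starts and AMD1 has 3, of which the first in the RefSeq list was used, and that of AMD1 lies well inside the gene span given above. The windows lie at chr2:10448278-10448577 on the minus strand for ODC1, chrX:21940459-21940758 on the plus strand for SMS, chr6:110874535-110874834 on the plus strand for AMD1 and chr1:11059969-11060268 on the minus strand for SRM. Capitals mark GC boxes, GGGCGG or its reverse complement CCGCCC, and in SRM also an E-box, CACGTG.
ODC1: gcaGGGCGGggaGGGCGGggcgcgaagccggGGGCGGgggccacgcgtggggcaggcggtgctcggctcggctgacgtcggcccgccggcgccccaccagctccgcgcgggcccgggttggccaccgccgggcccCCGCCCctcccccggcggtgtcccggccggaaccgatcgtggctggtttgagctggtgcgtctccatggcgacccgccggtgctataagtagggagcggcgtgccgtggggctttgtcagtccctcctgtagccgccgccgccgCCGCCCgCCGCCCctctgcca
SMS: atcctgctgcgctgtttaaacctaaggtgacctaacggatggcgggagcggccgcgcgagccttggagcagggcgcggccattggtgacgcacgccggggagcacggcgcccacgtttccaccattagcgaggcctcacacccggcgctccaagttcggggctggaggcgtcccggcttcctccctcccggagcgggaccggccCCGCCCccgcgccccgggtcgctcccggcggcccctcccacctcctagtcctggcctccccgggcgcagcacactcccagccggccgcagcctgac
AMD1: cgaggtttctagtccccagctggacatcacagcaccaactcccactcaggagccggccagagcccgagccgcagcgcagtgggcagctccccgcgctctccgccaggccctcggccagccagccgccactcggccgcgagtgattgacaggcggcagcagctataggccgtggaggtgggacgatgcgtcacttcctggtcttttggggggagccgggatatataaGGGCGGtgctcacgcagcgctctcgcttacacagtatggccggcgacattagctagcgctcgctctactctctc
SRM: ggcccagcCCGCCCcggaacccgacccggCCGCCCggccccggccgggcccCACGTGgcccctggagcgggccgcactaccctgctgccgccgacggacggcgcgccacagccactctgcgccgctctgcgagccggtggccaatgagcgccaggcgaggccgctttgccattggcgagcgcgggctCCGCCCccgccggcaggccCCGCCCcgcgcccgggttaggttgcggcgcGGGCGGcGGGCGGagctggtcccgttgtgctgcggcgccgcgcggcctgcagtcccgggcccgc
The windows of ODC1, which fell, and of SRM, called lower only with the GC trend removed, held 6 GC boxes each. Those of SMS and AMD1 held 1 each. Of the 35116 RefSeq promoters of that length, 44.95% held at least 1. A promoter was listed for 7 of the 10 members, and SAT1 was the 1 of these 7 without a GC box. The E-box CACGTG, the sequence bound by MYC with MAX, was in 7.26% of all promoters and among the 7 only in that of SRM, while the palindrome TGACGTCA (1.85% of all promoters) was in none of them. These matches describe letters in a window and not bound sites. The rest of each gene, introns included, was not searched.

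AZIN1 encodes antizyme inhibitor, a relative of ornithine decarboxylase without its activity, which takes antizyme away from the enzyme. It had 152.8 and 159.3 CPM in LNCaP-RRM2, against 234.4 and 242.0 CPM in LNCaP-EV. The libraries of each group were close together and the groups did not overlap. AZIN1 fell 1.53-fold (log2 -0.61, SE 0.06, 95% interval -0.77 to -0.45; adjusted p = 0.00321 by edgeR's quasi-likelihood test with Benjamini-Hochberg adjustment). This lies at the edge of the fold limit, and the call was lost under every scaling other than the TMM factors (log2 between -0.57 and -0.53), with the stricter filter (log2 -0.52), without LNCaP-EV replicate 2 (log2 -0.50) and without LNCaP-RRM2 replicate 1 (log2 -0.58). AZIN1 lies on chromosome 8 (102826302 to 102864200, minus strand).

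OAZ1 and OAZ2 encode antizymes, the inhibitors of ornithine decarboxylase whose frameshift sites are printed above. OAZ1 had 545.3 and 462.9 CPM in LNCaP-RRM2, against 651.6 and 434.5 CPM in LNCaP-EV. The LNCaP-EV libraries enclosed both LNCaP-RRM2 libraries, and the log2 fold change of OAZ1 was -0.11 (SE 0.20, 95% interval -0.60 to 0.39; adjusted p = 0.685 by edgeR's quasi-likelihood test with Benjamini-Hochberg adjustment). Its sign turned to 0.22 without LNCaP-EV replicate 1 and to 0.0057 without LNCaP-RRM2 replicate 2. OAZ2 had 103.9 and 103.1 CPM in LNCaP-RRM2, against 96.1 and 98.9 CPM in LNCaP-EV. The groups of OAZ2 did not overlap but lay close together (log2 0.086, SE 0.065, 95% interval -0.077 to 0.25; adjusted p = 0.325 by the same test). OAZ1 lies on chromosome 19 (2269486 to 2273488, plus strand) and OAZ2 on chromosome 15 (64687574 to 64703281, minus strand).

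SAT1 encodes spermidine/spermine acetyltransferase, which starts the breakdown and export of polyamines. It had 118.9 and 123.6 CPM in LNCaP-RRM2, against 101.7 and 106.1 CPM in LNCaP-EV. Both LNCaP-RRM2 libraries were above both LNCaP-EV libraries, by 1.17-fold on average, which passed the test but not the fold limit (log2 0.22, SE 0.07, 95% interval 0.055 to 0.39; adjusted p = 0.0448 by edgeR's quasi-likelihood test with Benjamini-Hochberg adjustment). Without LNCaP-RRM2 replicate 1 or replicate 2 the log2 fold change was 0.25 or 0.19 and did not pass, nor did it pass with DESeq2 size factors (log2 0.26), without the low-count filter (log2 0.23) or by the DESeq2 Wald test (log2 0.26). SMOX, which encodes the oxidase that acts on spermine directly, had 4.05 and 3.998 CPM in LNCaP-RRM2, against 4.14 and 2.88 CPM in LNCaP-EV. PAOX, which encodes the oxidase that acts on acetylated polyamines, had 2.65 and 2.60 CPM in LNCaP-RRM2, against 3.35 and 2.21 CPM in LNCaP-EV. For both oxidases the LNCaP-RRM2 libraries were nearly equal and lay within the range of the LNCaP-EV libraries, at between 59 and 131 counts a library. Neither passed (log2 0.19 with SE 0.22 for SMOX and -0.089 with SE 0.25 for PAOX; adjusted p = 0.513 and 0.792 by edgeR's quasi-likelihood test with Benjamini-Hochberg adjustment), and their 95% intervals, -0.36 to 0.74 and -0.71 to 0.53, each reach past the fold limit in 1 direction. SAT1 lies on chromosome X (23783158 to 23786224, plus strand), SMOX on chromosome 20 (4148779 to 4187748, plus strand) and PAOX on chromosome 10 (133379237 to 133391697, plus strand).

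The members whose LNCaP-EV libraries differed most were those of high GC content, apart from OAZ1. On the log2 scale, LNCaP-EV replicate 1 exceeded replicate 2 by 0.60 for PAOX, 0.58 for OAZ1, 0.52 for SMOX and 0.51 for SRM, while this difference lay between -0.13 and -0.04 for the other 6 members. The transcripts of PAOX, SMOX and SRM have 63.3%, 61.1% and 63.7% GC, and that of OAZ1 has 54.0%. Over all genes tested, the median of this difference was 0.60 in the decile of genes with the highest GC content and -0.11 in the decile with the lowest, while the same medians between the LNCaP-RRM2 libraries were 0.26 and -0.05. The LNCaP-RRM2 over LNCaP-EV log2 medians of these deciles were 0.51 and -0.22. When each library's trend with GC content was removed, ODC1, SRM (log2 -0.75) and PAOX (log2 -0.62) were called lower and AZIN1 (log2 -0.53) was not, at an all-gene median of -0.12.

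**Figure D3:**
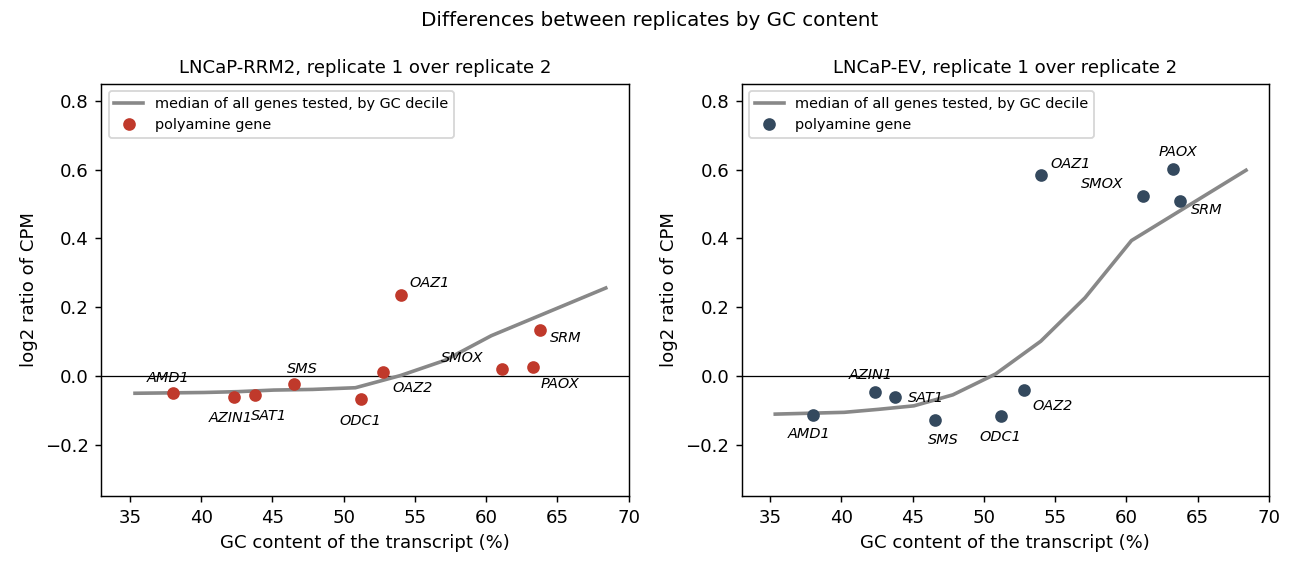
Log2 ratio of CPM between the 2 libraries of LNCaP-RRM2 (left) and of LNCaP-EV (right) against the GC content of the transcript in percent, with points for the polyamine genes and a line through the medians of all genes by GC decile. In LNCaP-EV the line runs between -0.11 and 0.60, PAOX, SMOX and SRM lie near it, and OAZ1 lies well above it.

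Levels of different genes were compared as CPM per kilobase of transcript. In LNCaP-RRM2 the order, high to low, was OAZ1 (439.1 ± 50.7), AMD1 (370.9 ± 9.19), ODC1 (151.7 ± 5.05), SAT1 (113.9 ± 3.08), SRM (79.1 ± 5.22), SMS (55.9 ± 0.661), OAZ2 (53.5 ± 0.261), AZIN1 (33.1 ± 0.973), SMOX (1.80) and PAOX (1.41). In LNCaP-EV the order of the first 6 genes was the same, with OAZ1 at 473.1 ± 133.7, AMD1 at 406.2 ± 22.6, ODC1 at 310.2 ± 17.5, SAT1 at 97.6 ± 2.90, SRM at 89.7 ± 22.1 and SMS at 79.4 ± 5.01 CPM per kilobase (SD, n = 2 each). The next genes in LNCaP-EV were AZIN1 at 50.5 ± 1.15 and OAZ2 at 50.4 ± 1.03, then SMOX at 1.57 and PAOX at 1.497 CPM per kilobase. Within LNCaP-EV, OAZ1 and AMD1, SAT1 and SRM, SRM and SMS, AZIN1 and OAZ2, and SMOX and PAOX did not differ beyond their spread. The acetyltransferase SAT1 thus stood far above both oxidases in every library.

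Ratios between members within a library do not depend on the scaling between libraries, and 6 were computed on the per-kilobase scale. The ODC1 level over that of OAZ1 was 0.312 and 0.385 in LNCaP-RRM2, against 0.525 and 0.852 in LNCaP-EV. Its level over that of OAZ2 was 2.76 and 2.91 in LNCaP-RRM2, against 5.99 and 6.31 in LNCaP-EV. Transcripts of the enzyme were thus fewer per antizyme transcript in both LNCaP-RRM2 libraries than in either LNCaP-EV library. ODC1 over AZIN1 was 4.58 and 4.601 in LNCaP-RRM2, against 5.998 and 6.29 in LNCaP-EV, so ODC1 was lower also relative to the other gene that fell. AMD1 over ODC1 was 2.46 and 2.43 in LNCaP-RRM2, against 1.31 and 1.31 in LNCaP-EV, and SAT1 over ODC1 was 0.754 and 0.747 in LNCaP-RRM2, against 0.321 and 0.309 in LNCaP-EV. SMS over SRM was 0.670 and 0.747 in LNCaP-RRM2, against 0.720 and 1.12 in LNCaP-EV, the 1 ratio of the 6 whose groups overlapped. With 2 libraries against 2, a two-sided exact permutation test cannot give a p below 0.333, which the 5 ratios without overlap reached, and SMS over SRM gave 0.667. All 5 contain ODC1, so they are not independent of its lower level, and the test cannot decide whether they differ. Among single genes tested, LNCaP-RRM2 lay below LNCaP-EV without overlap for 40.9% and above it for 34.5%. The like share over ratios of genes was not computed.

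**Figure D4:**
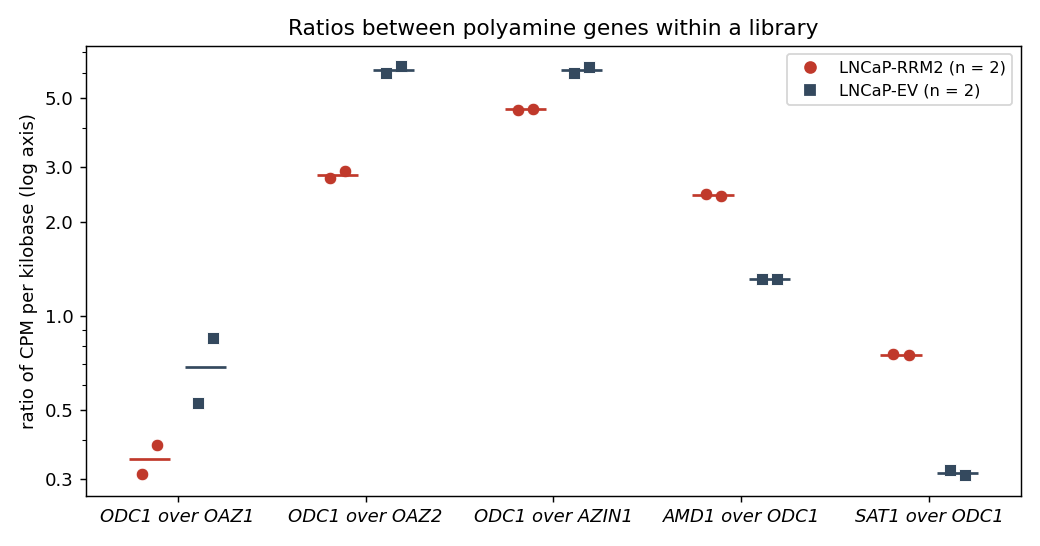
The 5 ratios of CPM per kilobase that involve ODC1, in each library on a log axis, LNCaP-RRM2 to the left of LNCaP-EV, with bars at the means. AMD1 over ODC1 (2.46 and 2.43 in LNCaP-RRM2, 1.31 and 1.31 in LNCaP-EV) and SAT1 over ODC1 are higher in LNCaP-RRM2, and the 3 ratios with ODC1 on top are lower there.

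Around the core pathway, 6 lists of 63 genes were read in the same fit, and 52 of these genes were tested. Of the 52, 6 were called higher, 4 lower and 42 neither, with a median log2 fold change of -0.074. The 6 include AOC1, which passed the low-count filter only through the LNCaP-RRM2 libraries. Over all genes tested, 12.5% were higher and 7.96% lower, close to the shares of these lists. Of the 6 that were higher, 4 were among the 10 tested genes of polyamine transport, a list with none lower and a median of 0.50, and whether the lists differ was not tested. The calls of all 4 were lost when either LNCaP-RRM2 library was left out. The median was 0.35 over 4 other polyamine genes, -0.13 over 8 genes of ornithine and arginine supply, -0.24 over 15 genes of the methionine cycle and methylthioadenosine salvage, -0.37 over 5 genes of hypusine formation and eIF5A and 0.18 over 10 genes of the MYC network.

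AOC1, the diamine oxidase that degrades putrescine, was the only called gene among the other polyamine genes. It had 1.14 and 0.990 CPM in LNCaP-RRM2, against 0.0633 and 0.0374 CPM in LNCaP-EV. These were 58 counts over LNCaP-RRM2 and 3 counts over LNCaP-EV, a ratio of 20.7 with a 95% counting interval of 6.75 to 103.4. AOC1 was called higher, but it passed the low-count filter only through the LNCaP-RRM2 libraries, where it is high. Its call therefore adds no support beyond the counts. The level in LNCaP-RRM2 was still near 1 CPM.

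Among the genes that supply or use ornithine, OAT and ARG2 were lower. OAT, which moves ornithine toward glutamate and proline, had 12.3 and 12.8 CPM in LNCaP-RRM2, against 18.6 and 21.6 CPM in LNCaP-EV (log2 -0.68, SE 0.13; adjusted p = 0.0118 by edgeR's quasi-likelihood test with Benjamini-Hochberg adjustment). Without LNCaP-RRM2 replicate 1 (log2 -0.65), LNCaP-RRM2 replicate 2 (log2 -0.71) or LNCaP-EV replicate 2 (log2 -0.48) OAT was not called. ARG2, the mitochondrial arginase that makes ornithine, had 165.5 and 171.3 CPM in LNCaP-RRM2, against 207.9 and 217.4 CPM in LNCaP-EV (log2 -0.34, SE 0.06; adjusted p = 0.0117 by the same test), under the fold limit. The libraries of the 2 groups did not overlap for either gene, as for 40.9% of all genes tested with LNCaP-RRM2 below. ARG2 did not pass without LNCaP-RRM2 replicate 1 (log2 -0.31) or replicate 2 (log2 -0.36).

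The methionine cycle makes the substrate of AMD1, and salvage recycles the methylthioadenosine that SRM and SMS release. MAT2A, which makes S-adenosylmethionine, had 342.9 and 356.4 CPM in LNCaP-RRM2, against 436.8 and 480.9 CPM in LNCaP-EV (log2 -0.39, SE 0.07; adjusted p = 0.0118 by edgeR's quasi-likelihood test with Benjamini-Hochberg adjustment). MTAP, the first enzyme of salvage, had 59.6 and 62.7 CPM in LNCaP-RRM2, against 72.3 and 78.0 CPM in LNCaP-EV (log2 -0.30, SE 0.08; adjusted p = 0.0334 by the same test). Both were lower without overlap of the groups, as were 40.9% of all genes tested, and under the fold limit. The median log2 fold change over all genes was -0.21 in the GC decile of MAT2A and -0.23 in that of MTAP. With the GC trend removed, MAT2A was at -0.33 and MTAP at -0.21. Neither passed without LNCaP-RRM2 replicate 1 (log2 -0.36 for MAT2A and -0.26 for MTAP) or replicate 2 (log2 -0.42 and -0.33). MTAP also did not pass without LNCaP-EV replicate 2 (log2 -0.15), under any other scaling (log2 between -0.26 and -0.22), with either other filter (log2 -0.29 and -0.20) or by the DESeq2 Wald test (log2 -0.26). Later steps of salvage went in both directions. ENOPH1 had 108.1 and 114.5 CPM in LNCaP-RRM2, against 165.5 and 178.9 CPM in LNCaP-EV, and was called lower (log2 -0.63, SE 0.07; adjusted p = 0.00397 by the same edgeR test). MRI1, the isomerase of salvage, had 44.2 and 43.0 CPM in LNCaP-RRM2, against 28.7 and 24.5 CPM in LNCaP-EV, and was called higher (log2 0.71, SE 0.11; adjusted p = 0.00699 by the same edgeR test). GOT1, an aminotransferase that serves many pathways besides salvage, was called lower, with 91.8 and 101.6 CPM in LNCaP-RRM2 against 164.1 and 173.4 CPM in LNCaP-EV (log2 -0.80, SE 0.08; adjusted p = 0.00299 by the same edgeR test). The call of ENOPH1 was lost without LNCaP-EV replicate 2 (log2 -0.48) or LNCaP-RRM2 replicate 1 (log2 -0.59). It fell under the fold limit with total counts (log2 -0.56), upper-quartile factors (log2 -0.55), omission of RRM2 and ribosomal RNA counts (log2 -0.56), the stricter filter (log2 -0.54) and removal of the GC trend (log2 -0.56). The call of MRI1 was lost without LNCaP-RRM2 replicate 1 (log2 0.69) or replicate 2 (log2 0.73) and with the GC trend removed (log2 0.33).

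Spermidine is also the donor for hypusine, the modified lysine of the translation factor eIF5A. EIF5A had 242.3 and 245.3 CPM in LNCaP-RRM2, against 366.1 and 292.3 CPM in LNCaP-EV (log2 -0.43, SE 0.11; adjusted p = 0.0305 by edgeR's quasi-likelihood test with Benjamini-Hochberg adjustment), which was under the fold limit and did not pass without LNCaP-RRM2 replicate 1 (log2 -0.42) or replicate 2 (log2 -0.44), or when RRM2 and ribosomal RNA counts were left out (log2 -0.36). DHPS, which starts hypusine formation, had 42.1 and 41.1 CPM in LNCaP-RRM2, against 59.6 and 47.9 CPM in LNCaP-EV (log2 -0.37, SE 0.12; adjusted p = 0.0581 by the same edgeR test) and did not pass. In both genes LNCaP-EV replicate 1 was the highest library, and with the GC trend removed both were called lower (log2 -0.68 for EIF5A and -0.64 for DHPS). EIF5AL1, a near-identical copy of EIF5A, was called lower at 87.3 and 97.2 CPM in LNCaP-RRM2 against 159.8 and 159.7 CPM in LNCaP-EV (log2 -0.79, SE 0.08; adjusted p = 0.00297 by the same edgeR test). How the counting divided reads between EIF5A and this copy is not stated, so the values of both are uncertain.

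Of the transport genes, GPC1, SLC7A2, SLC18B1 and ATP13A2 were called higher. SLC7A2, a cationic amino acid transporter that carries ornithine and arginine, had 94.5 and 99.3 CPM in LNCaP-RRM2, against 53.7 and 60.3 CPM in LNCaP-EV (log2 0.77, SE 0.09; adjusted p = 0.00381 by edgeR's quasi-likelihood test with Benjamini-Hochberg adjustment). SLC18B1, a vesicular polyamine transporter, had 21.9 and 22.5 CPM in LNCaP-RRM2, against 14.5 and 14.0 CPM in LNCaP-EV (log2 0.63, SE 0.11; adjusted p = 0.00870 by the same test). Libraries within a group were close for both genes. GPC1, a cell surface proteoglycan implicated in polyamine uptake, had 24.4 and 18.5 CPM in LNCaP-RRM2, against 11.99 and 6.70 CPM in LNCaP-EV (log2 1.19, SE 0.30; adjusted p = 0.0260 by the same edgeR test). In GPC1 replicate 1 was the higher library of both groups. The groups did not overlap, as for 34.5% of all genes tested with LNCaP-RRM2 above. ATP13A2, the lysosomal polyamine exporter, was named after its values were seen, and had 52.2 and 41.3 CPM in LNCaP-RRM2 against 32.1 and 19.2 CPM in LNCaP-EV (log2 0.86, SE 0.26; adjusted p = 0.0437 by the same edgeR test). Its relative ATP13A3, a polyamine importer, had 172.4 and 175.9 CPM in LNCaP-RRM2, against 155.8 and 166.6 CPM in LNCaP-EV (log2 0.11, SE 0.07), and SLC3A2, the heavy chain of amino acid exchangers linked to polyamine export, had 251.2 and 227.2 CPM in LNCaP-RRM2, against 263.2 and 225.2 CPM in LNCaP-EV (log2 -0.03, SE 0.10). Neither passed (adjusted p = 0.217 and 0.824 by the same edgeR test), and the sign of SLC3A2 turned under other scalings (log2 0.015 to 0.050) and the stricter filter (log2 0.067). The calls of SLC7A2 (log2 0.80 or 0.73), SLC18B1 (log2 0.65 or 0.61), GPC1 (log2 0.98 or 1.38) and ATP13A2 (log2 0.68 or 1.02) were lost without LNCaP-RRM2 replicate 1 or replicate 2. With the GC trend removed, GPC1 (log2 0.52) and ATP13A2 (log2 0.31) were under the fold limit.

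MYC, a transcription factor for which ODC1 is a known target, had 208.9 and 200.5 CPM in LNCaP-RRM2, against 162.5 and 140.4 CPM in LNCaP-EV. Both LNCaP-RRM2 libraries were above both LNCaP-EV libraries (log2 0.43, SE 0.09; adjusted p = 0.0145 by edgeR's quasi-likelihood test with Benjamini-Hochberg adjustment), under the fold limit. Without LNCaP-RRM2 replicate 1 or replicate 2 the log2 fold change of MYC was 0.40 or 0.46 and did not pass, and with the GC trend removed it was 0.11 and did not pass. None of the 10 tested genes of the MYC network was called, against 20.5% of all genes, although 2 were higher and 1 lower without the fold limit, against 17.8% and 24.4% of all genes. In the same libraries ODC1 was lower.

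**Figure D5:**
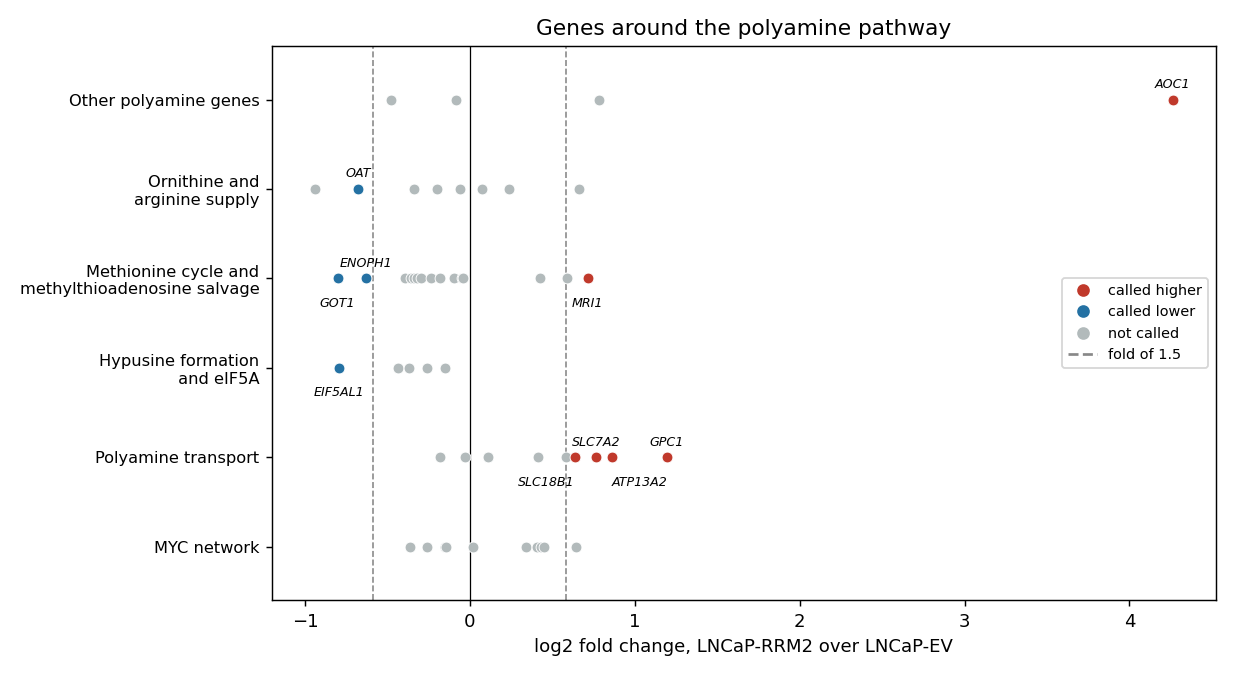
Log2 fold changes, LNCaP-RRM2 over LNCaP-EV, of the tested genes in 6 lists around the polyamine pathway, with dashed lines at a fold of 1.5 and names for called genes. Transport has 4 called genes to the right, the methionine list has GOT1 and ENOPH1 to the left and MRI1 to the right, and AOC1 lies furthest right.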

How the data were processed

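RNA of 4 LNCaP libraries (2 LNCaP-RRM2, 2 LNCaP-EV, grouped by sample title) was analysed by the authors in Partek Flow. The sources used here name no aligner, annotation or strand setting. The authors deposited estimated counts per gene, not scaled between libraries and not all whole, which were rounded. The table held 17141 genes with at least 10 counts in all. Of 16031 matched to RefSeq by symbol, 99.9% overlapped their GRCh38 position; 5018 genes ended 1 base past RefSeq, and for those of them printed here (OAZ1, OAZ2, AZIN1 and SMS) 1 was subtracted from the end.

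Genes kept by filterByExpr (15162) were scaled by TMM and tested with edgeR 4.0.16 in R 4.3.3 (quasi-likelihood F-test, no covariates, Benjamini-Hochberg adjustment over all tested genes). A call needed a fold change above 1.5 and an adjusted p below 0.05. Library totals of 26601061 to 32601519 counts make counting error matter mainly for SMOX, PAOX and AOC1; counting intervals cover counting error only. Libraries within a group differed by more than sampling noise (chi-square divided by its degrees of freedom was 7.76 for LNCaP-RRM2 and 23.0 for LNCaP-EV) and were kept as replicates. GC content and length came from the principal GENCODE release 29 transcript (GC for 95.6% of tested genes).

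Members, lists and markers were chosen with earlier results of these data known. Genes named were RRM2, the 10 members, up to 3 called genes per list and direction by smallest p, and ARG2, OAT, MAT2A, MTAP, EIF5A, DHPS, SLC3A2, ATP13A3 and MYC. Outside this rule, ATP13A2 was named after its values were seen, CDK19, C2orf48 and HPCAL1 for their position, and single genes from the marker lists. The fit was tested on simulated counts with a fixed spread between libraries and no trend with GC content. That test does not cover the GC trend between these libraries. Alternatives were DESeq2 1.42.0 size factors and Wald test, total counts, upper-quartile factors, omission of RRM2 and ribosomal RNA counts, no filter, a stricter filter (1 CPM in 2 libraries and a mean of 5 CPM), limma-voom (limma 3.58.1), thinning to equal depth, a replicate block, removal of a GC trend, no fold limit and leaving out each library.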

Additional observations from a re-analysis of the deposited data

How the results depend on the processing

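Of 158 comparisons of a polyamine gene with an alternative, 137 kept direction and call. For the 8 members not called in the main fit, this means only that they stayed uncalled with the same sign. It includes settings in which SMS or SAT1 no longer passed the test. ODC1 was called lower under every alternative run. With DESeq2 size factors, total counts, upper-quartile factors, omission of RRM2 and ribosomal RNA counts, the stricter filter or the DESeq2 Wald test, 1 polyamine gene was lower in place of 2, because AZIN1 fell under the fold limit (log2 -0.57, -0.54, -0.53, -0.54, -0.52 and -0.57). With the GC trend removed, ODC1, SRM and PAOX were lower and 8 pathway genes were lower in place of 4, also with a replicate block, and SMOX turned to -0.24 (-0.25 with the block). The replicate block alone gave 2346 genes higher and 1255 lower and the same 2 polyamine genes; replicate numbers are shared only as numbers, although replicate differences correlated between groups (r = 0.437 across 14500 genes, which are not independent). Without the fold limit 3695 genes were lower, 1 polyamine gene was higher and 12 pathway genes were lower, and the stricter filter left 612 genes lower. Of all calls 61.1% were higher, against 70.9% with DESeq2 size factors, 72.4% with total counts, 75.0% with upper-quartile factors, 73.2% without RRM2 and ribosomal RNA, 71.6% with the stricter filter, 50.9% with the GC trend removed and 51.5% with the block added. SLC3A2 turned to 0.015 (DESeq2 size factors and Wald test), 0.036 (total counts), 0.050 (upper quartile), 0.043 (without RRM2 and ribosomal RNA) and 0.067 (stricter filter).

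Leaving out 1 library assumes that the lone library varies like the other group. It gave 362 to 3003 genes higher and 234 to 1465 lower, 1 to 2 polyamine genes lower, and 1 to 11 pathway genes higher and 2 to 5 lower. The highest count of higher genes came without LNCaP-EV replicate 1, and the lowest counts came without LNCaP-RRM2 replicate 1 (539 higher and 419 lower without LNCaP-RRM2 replicate 2). Log2 fold changes turned sign for OAZ1 (-0.28 to 0.22), AMD1 (-0.18 to 0.015), SRM (-0.32 to 0.10), PAOX (-0.26 to 0.26) and SLC3A2 (-0.10 to 0.092). The cause of these changes was not tested.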
